A study of Mus musculus with 18 samples.

Results

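Oxidative phosphorylation is the process by which mitochondria turn the electrons of NADH and succinate into ATP. Complex I (NADH dehydrogenase) and complex II (succinate dehydrogenase) pass electrons to ubiquinone, complex III (cytochrome bc1) hands them on to cytochrome c, complex IV (cytochrome c oxidase) gives them to oxygen, and complex V (ATP synthase) uses the proton gradient that complexes I, III and IV build. Most subunits are encoded in the nucleus and the rest in mitochondrial DNA, and in spinal cord the ATP feeds above all the ion pumps of neurons. The genes described here are the nuclear oxidative phosphorylation genes of the deposited count table. They were chosen by gene symbol (the *Nduf*, *Sdh*, *Uqcr*, *Cox4* to *Cox8* and *Atp5* families) and by a measured value, at least 10 counts in each of the 18 samples. Of 55573 genes in the table, 90 had such a symbol and 83 reached the count minimum: 37 of complex I, 4 of complex II, 8 of complex III, 16 of complex IV and 18 of complex V. Within the count minimum, the lowest sample of *Cox8b* had 11 counts, that of *Atp5g2* 20 and that of *Cox6a2* 23. Outside it were *Uqcrh-ps1* (lowest sample 9 counts), *Uqcrh-ps2* (8), *Cox7b2* (7), *Atp5l-ps1* (7), *Atp5k-ps2* (6), *Atp5l-ps2* (2) and *Cox8c* (0). Of the 83 members, 81 were annotated as protein-coding and 2, *Atp5c1-ps* and *Atp5l2-ps*, as processed pseudogenes.

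RNA was sequenced from spinal dorsal horn (DHSC) of adult C57BL/6J mice, on the side of the hind paw that had received 2% formalin, 2 h after the injection. Formalin given this way is a model of acute chemical and inflammatory pain, and the pain behavior falls into phases with a quiet interphase between them. The 3 groups of 6 samples were F1/proestrus females (proestrus, short interphase), F2/metestrus females (metestrus, long interphase) and males. All groups had received formalin, so that nothing here compares injected with naive animals. The methods call the samples biological replicates, whereas the labels do not say from which mouse each came, and p-values measure the spread between these samples. The dissection takes up whole tissue, in which fewer cells of a type and less RNA per cell cannot be told apart. Total counts were 73590509 to 125724156 per sample, and 3 counts, taken as the smallest signal this depth can show, came to 0.0240 to 0.0407 CPM (counts scaled to a common library total after TMM normalization). Only the error of counting enters into this limit. The library numbers in the table run from 27 to 35 for replicates 1 to 3 of every group and from 188 to 196 for replicates 4 to 6. The labels give all 18 samples the same protocol and do not say what separates the 2 runs of numbers, which are called replicate sets here. Each set holds 3 samples of every group.

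Markers of neurons, astrocytes, oligodendrocytes and microglia were present in all 18 samples. The F1/proestrus sample of replicate 5 stood apart in markers of dorsal root ganglion neurons, with a summed level of 644 CPM over 8 genes against 10.9 to 37.8 CPM in the other samples. The male sample of replicate 2 and the F1/proestrus sample of replicate 2 stood apart in skeletal muscle markers, with sums over 6 genes of 93.3 and 33.9 CPM against 3.27 to 20.1 CPM elsewhere. The male sample of replicate 5 had the highest sum of Schwann cell markers, 4542 CPM over 6 genes against 1264 to 2695 CPM in the other samples. The main counts and medians are given with and without these samples.

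Because the members are transcribed from separate nuclear genes, promoters are shown for the member of complexes I, III, IV and V with the smallest p between the replicate sets, and for *Sdha* of complex II, which did not pass. No entry was matched for *Sdhc*, which had the smallest p of complex II. They are the 250 bases before the annotated start of RefSeq (GRCm38.p6), 5′ to 3′ on the strand of the gene, in lower case with the letters of 5 motifs in capitals. The motifs were searched on both strands: GCGCANGCG (nuclear respiratory factor 1), CCGGAAG (ETS family, which includes GA-binding protein), ATGGCGG (YY1), GGGCGG (SP family) and AAGGTCA (estrogen-related receptors). Nuclear respiratory factor 1 and GA-binding protein are known as regulators of nuclear genes for mitochondrial proteins.
Ndufs5 (complex I, chr4:123718187-123718436, minus strand): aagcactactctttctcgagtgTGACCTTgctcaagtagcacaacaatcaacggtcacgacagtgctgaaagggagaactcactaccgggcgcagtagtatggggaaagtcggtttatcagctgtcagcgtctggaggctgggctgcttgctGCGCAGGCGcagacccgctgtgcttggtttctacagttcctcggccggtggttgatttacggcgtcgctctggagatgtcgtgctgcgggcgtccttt
Sdha (complex II, chr13:74350241-74350490, minus strand): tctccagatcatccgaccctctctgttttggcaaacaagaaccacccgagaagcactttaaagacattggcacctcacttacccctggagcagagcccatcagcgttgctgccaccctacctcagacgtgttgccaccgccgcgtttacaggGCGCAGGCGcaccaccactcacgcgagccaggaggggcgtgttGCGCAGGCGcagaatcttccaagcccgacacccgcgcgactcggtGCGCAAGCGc
Uqcrh (complex III, chr4:116075071-116075320, minus strand): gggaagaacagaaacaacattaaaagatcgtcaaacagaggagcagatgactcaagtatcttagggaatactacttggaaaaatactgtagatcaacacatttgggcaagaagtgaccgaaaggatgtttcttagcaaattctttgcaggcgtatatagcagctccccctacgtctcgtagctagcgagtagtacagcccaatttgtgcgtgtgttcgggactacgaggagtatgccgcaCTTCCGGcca
Cox6a1 (complex IV, chr5:115348959-115349208, minus strand): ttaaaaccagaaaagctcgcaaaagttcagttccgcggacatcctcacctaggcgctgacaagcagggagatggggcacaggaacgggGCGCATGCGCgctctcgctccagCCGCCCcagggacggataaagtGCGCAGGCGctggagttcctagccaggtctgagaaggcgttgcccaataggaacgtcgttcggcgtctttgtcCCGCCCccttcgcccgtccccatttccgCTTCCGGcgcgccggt
Atp5k (complex V, chr5:108434400-108434649, minus strand): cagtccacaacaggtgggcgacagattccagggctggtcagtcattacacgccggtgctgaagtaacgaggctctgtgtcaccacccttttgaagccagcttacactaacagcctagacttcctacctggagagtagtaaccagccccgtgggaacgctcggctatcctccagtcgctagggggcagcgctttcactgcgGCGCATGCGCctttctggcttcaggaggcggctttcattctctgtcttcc

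In these 5 windows, *Sdha* held 3 matches of the nuclear respiratory factor 1 letters and *Cox6a1* held 6 matches of 3 motifs, some of them overlapping. *Atp5k* held the nuclear respiratory factor 1 letters as a palindrome read on both strands, *Ndufs5* held them once together with the estrogen-related receptor letters, and *Uqcrh* had a single match, of the ETS letters. In the full windows of the RefSeq table, 250 bases before to 50 after the start, 65 of the 83 members were matched by symbol. The nuclear respiratory factor 1 letters were found in 20 of the 65 members (30.8%) and in 7.03% of all 27025 genes of the table. The ETS letters stood in 24.6% of the members and 9.93% of all genes, the YY1 letters in 15.4% and 4.69%, and the estrogen-related receptor letters in 12.3% and 5.38%. The SP letters were about as frequent in members (38.5%) as in all genes (38.2%). At least 3 of the 5 motifs were present in 10.8% of the members and 2.20% of all genes, while 16 of the 65 members held none. The median GC content of the windows was 57.3% in members and 52.8% in all genes. These shares describe letters, not sites that a factor was seen to bind. Members with the nuclear respiratory factor 1 letters had a median log2 difference between the replicate sets of 0.21, and those without them 0.21. With and without the other letters the medians were 0.22 and 0.21 (ETS), 0.20 and 0.21 (YY1), and 0.20 and 0.22 (SP). For the estrogen-related receptor letters, held by 8 members, they were 0.15 and 0.21. These differences were not tested.

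The members together took 1.29% to 1.64% of the counts of a sample. Compared per length, as CPM per kilobase of all annotated exons, their mean levels ran from 0.204 (*Atp5g2*) to 582 (*Atp5b*), with a median of 69.1. *Atp5b*, the catalytic beta subunit of ATP synthase, had 582 ± 33.0 CPM per kb (SD, n = 18), above every other member in all samples. Next came *Cox8a*, a small subunit of cytochrome c oxidase, with 388 ± 50.7 and *Atp5a1*, the alpha subunit of ATP synthase, with 383 ± 29.3, and these neighbours did not differ beyond their spread. The highest member of complex II was *Sdha*, the flavoprotein that oxidizes succinate, at 227 ± 9.58 CPM per kb. Complex I was led by the accessory subunit *Ndufb9* (183 ± 20.0) and complex III by the core protein *Uqcrc1* (166 ± 10.9), which overlapped in their ranges. Exon length here is the union of all annotated transcripts, so that a gene with long rare isoforms appears lower per kb than it would by its main transcript. For *Ndufb9*, 19.5% of the exon bases also belong to another gene of the same strand.

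**Figure D1:**
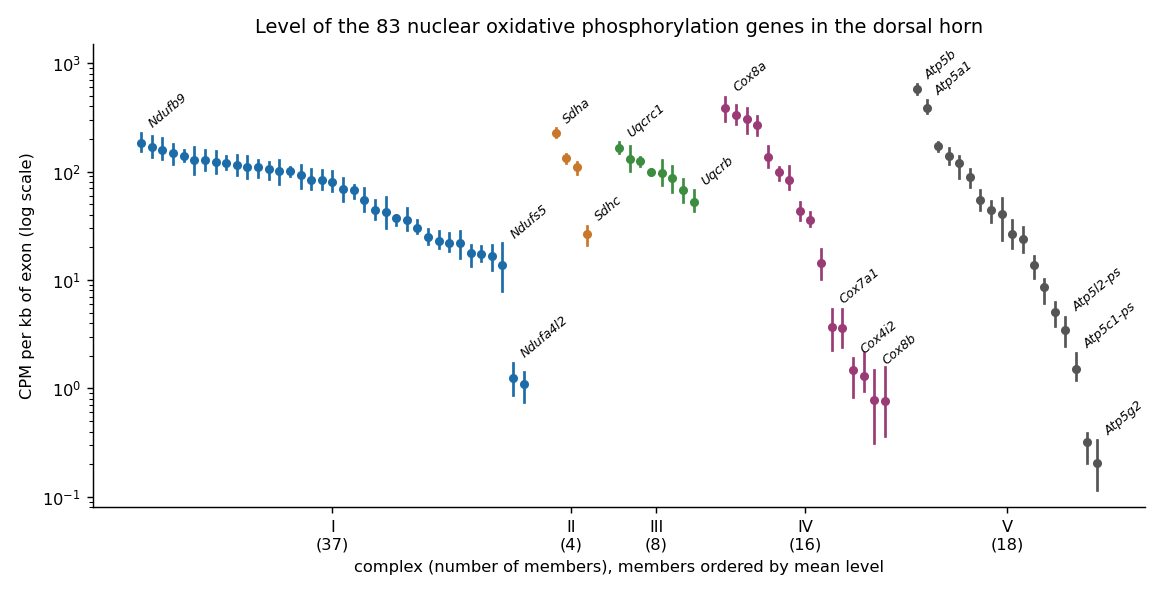
Mean CPM per kilobase of exon of each of the 83 members over the 18 samples, on a log scale, grouped by complex and ordered by level. Points are means and lines run from the lowest to the highest sample; the levels run from 0.204 for *Atp5g2* to 582 for *Atp5b*.

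Isoforms that are known from other tissues or states were low. *Cox6a2*, *Cox7a1* and *Cox8b*, the heart and muscle forms of 3 small subunits of complex IV, had mean levels of 0.757, 3.68 and 0.775 CPM per kb. Their ubiquitous partners *Cox6a1*, *Cox7a2* and *Cox8a* had 306, 137 and 388 CPM per kb. *Cox4i2*, a form of subunit 4 known from lung and hypoxia, stood at 1.48 against 333 for *Cox4i1*, and *Cox6b2*, known from testis, at 1.31 against 271 for *Cox6b1*. *Ndufa4l2*, known as a gene induced by hypoxia, had 1.24 CPM per kb and its relative *Ndufa4*, now counted as a subunit of cytochrome c oxidase although its symbol put it under complex I here, 157. *Cox7a2l*, known as a factor of supercomplexes of complexes III and IV, had 35.5 CPM per kb. Whether its protein has this role in the strain used here was not tested. Of the 3 genes for the same mature c subunit of ATP synthase, *Atp5g3* had 140.0, *Atp5g1* 5.07 and *Atp5g2* 0.204 CPM per kb.

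Several low values belong to genes with near copies elsewhere in the genome. The authors kept uniquely mapped reads only, and reads that fit a copy equally well are then lost. Of all 50-base windows of the transcripts of *Atp5g2*, 36.7% also occurred in transcripts of genes elsewhere, and the share was 25.4% for *Uqcrb*, 22.1% for *Cox7c*, 21.7% for *Ndufs5*, 19.9% for *Atp5h*, 18.3% for *Ndufb4* and 11.1% for *Atp5g1*. In all, 12 members shared at least 10% of their windows, and their median level was 11.1 CPM per kb against 88.3 for the other 71. Within the 12, *Uqcrb* had 52.5 CPM per kb. Among the 71, the low members *Cox6a2* (0.757) and *Cox8b* (0.775) shared 0% of their windows with genes elsewhere. The levels of the 12 are uncertain because of the shared windows, and the part of lost reads in them was not tested. *Atp5l*, below the 10% limit with 8.73% of its windows shared, had windows in common with 19 pseudogenes and a level of 0.322 CPM per kb. Copies outside annotated transcripts were not counted. Exons of 29 members overlapped exons of other genes, 11 of them over at least 10% of the exon bases, and since the strand setting of the counting is not given in the sources used here, reads of such a pair may be mixed.

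The subunits encoded in mitochondrial DNA could not be compared with the nuclear ones. All 37 mitochondrial genes of the table, among them the 13 subunit genes of complexes I, III, IV and V such as *mt-Nd1*, *mt-Cytb*, *mt-Co1* and *mt-Atp6*, were listed at 0 counts in all 18 samples. Transcripts of mitochondrial DNA are abundant in neural tissue as a rule, and why they are listed at 0 was not tested.

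The first comparison asked whether the members differed between the 2 kinds of females. Between F2/metestrus and F1/proestrus, 0 of the 83 members passed edgeR's quasi-likelihood test (Benjamini-Hochberg, FDR of 5%), and 0 had an unadjusted p under 0.05. Among all 24042 genes tested, 0% passed in either direction, and 596 had an unadjusted p under 0.05, while DESeq2 called 2 genes and 0 members. The median log2 difference of the members, F2/metestrus minus F1/proestrus, was -0.03 (24 of 83 above 0), beside a share of 49.8% above 0 for all genes tested. When single samples were left out, the number above 0 ran from 9 to 60 of 83. By complex the medians were -0.03 in I, 0.01 in II, -0.05 in III, -0.04 in IV and -0.02 in V.

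*Sdha* had 895 to 967 CPM in F1/proestrus (median 927) and 932 to 1030 CPM in F2/metestrus (median 956). The groups overlapped, with a log2 difference of 0.06 ± 0.04 (SE) and an unadjusted p of 0.162 in edgeR. *Ndufs1*, an iron-sulfur subunit of complex I, had 293 to 315 CPM in F1/proestrus (median 300.4) and 301 to 321 CPM in F2/metestrus (median 310.2), a log2 difference of 0.04 ± 0.04. The smallest p of complex III was that of *Uqcr10*, a small subunit (log2 difference -0.09 ± 0.11), that of complex IV that of *Cox6b2* (-0.22 ± 0.15), and that of complex V that of the pseudogene *Atp5c1-ps* (0.26 ± 0.14). The approximate 95% interval of the difference lay within a 1.2-fold change for 60 of the 83 members and within a 1.5-fold change for 80. A 1.2-fold change in the other 23 could not be told from none at this sample size. The median was -0.07 without the F1/proestrus sample of replicate 2 and -0.03 without that of replicate 5.

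Between the sexes, the members lay somewhat higher in males without passing the test. Of 24862 genes tested, 0.149% were called higher and 0.0483% lower in males, and 0 of the 83 members were called in either direction (smallest adjusted p = 0.328 in edgeR). The log2 difference, male minus female, was above 0 for 75 of the 83 members with a median of 0.10, whereas 49.6% of all genes tested were above 0. By complex the medians were 0.10 in I, 0.05 in II, 0.14 in III, 0.14 in IV and 0.08 in V, and all 16 members of complex IV and all 8 of complex III were above 0. At an unadjusted p under 0.05 there were 12 members, 10 higher in males and 2 (*Ndufs1* and *Atp5s*) lower, or 14.5% of the members beside 9.72% of all genes tested. Their adjusted p-values were 0.328 to 0.510.

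The member with the smallest p was *Ndufs1*, with 258 to 309 CPM in males (median 286) and the female values given above. The male range overlapped both female ranges, and the log2 difference was -0.11 ± 0.04 (SE, unadjusted p = 0.00777). *Cox7a1* had 1.22 to 2.28 CPM in F1/proestrus (median 1.74), 1.61 to 2.40 CPM in F2/metestrus (median 1.83) and 1.84 to 2.91 CPM in males (median 2.22). Males were higher on average but overlapped with the females, with a log2 difference of 0.32 ± 0.13 (unadjusted p = 0.0199, adjusted p = 0.413 in edgeR). In complex III the smallest p was that of *Uqcrq*, a small subunit (0.20 ± 0.09, adjusted p = 0.505), in complex II that of *Sdha* (-0.06 ± 0.04, adjusted p = 0.606), and in complex V that of *Atp5s*, known as a coupling factor of ATP synthase (-0.16 ± 0.07, adjusted p = 0.494). *Atp5b* was level between the sexes, with a log2 difference of 0.00011 and an approximate 95% interval of -0.09 to 0.09.

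Listed here as core were 10 subunits (*Ndufs1*, *Ndufv1*, *Sdha*, *Sdhb*, *Uqcrc1*, *Uqcrfs1*, *Cox4i1*, *Cox5a*, *Atp5a1* and *Atp5b*). *Cox4i1* and *Cox5a* are accessory subunits of complex IV, so that the list is wider than the catalytic core. The 10 listed subunits had a median log2 difference between the sexes of 0.02, from -0.11 (*Ndufs1*) to 0.14 (*Cox4i1*). The 6 isoforms of other tissues or states named above (*Cox4i2*, *Cox6a2*, *Cox6b2*, *Cox7a1*, *Cox8b* and *Ndufa4l2*), a class drawn up after their values were seen, had 0.29, and the remaining 67 members 0.11. Median exon length was 2885 bases in the 10 subunits listed as core and 1495 bases in the remaining members. The highest value was that of *Cox8b*, 0.56 ± 0.28 (adjusted p = 0.520 in edgeR), a gene with 11 to 59 counts per sample. Without the male sample of replicate 2, which held the 59 counts, it was 0.40 ± 0.30 (adjusted p = 0.635 in edgeR). For *Cox6a2* the difference was 0.43 ± 0.24, and 0.20 ± 0.23 without the same sample. That sample held the highest levels of *Cox8b* (0.534 CPM) and of *Cox6a2* (1.07 CPM) and the highest sum of skeletal muscle markers. Without it the median of the 6 isoforms was 0.27.

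The difference between the sexes was also computed within the replicate sets. In replicates 1 to 3 alone the median over the members was 0.03, with 57 of 83 above 0, and in replicates 4 to 6 alone it was 0.16, with 78 of 83 above 0, and 0 members were called in either set. Against F1/proestrus alone the males had a median of 0.09 and against F2/metestrus alone 0.11. With the replicate set as a covariate the median remained at 0.10 and 36 members (43.4%) had an unadjusted p under 0.05 beside 16.3% of 25180 genes, and 0 members were called (smallest adjusted p = 0.0970 in edgeR) beside 133 genes. Without the male sample of replicate 6 the median was 0.06 (63 of 83 above 0), the lowest value when single samples were left out, and without that of replicate 5 it was also 0.06 (69 of 83). It was 0.13 without the male sample of replicate 2, 0.08 without the F1/proestrus sample of replicate 2 and 0.10 without that of replicate 5. An interaction of sex and replicate set, chosen after seeing the data, was called for 0 of the 83 members and 0 of 26075 genes, with 3 members and 1238 genes at an unadjusted p under 0.05.

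Among the marker lists of cell types, those of neutrophils and Schwann cells held genes called between the sexes. Of 7 neutrophil markers tested, 2 were called higher in males, *Lcn2* (1.97 ± 0.25) and *Mpo* (1.37 ± 0.25), and the sums of the list were 3.87 to 11.0 CPM in females and 16.4 to 30.1 CPM in males. The authors report both genes as higher in males in these same samples, so that these calls are not a separate finding. They describe *Lcn2* as made by several cell types besides neutrophils. Of 6 Schwann cell markers, 1 was called higher, *Ncmap* (0.67 ± 0.11), with a median of 0.64 over the list and sums of 1264 to 2628 CPM in females and 1868 to 4542 CPM in males. The sums did not overlap for neutrophils and overlapped for Schwann cells. Of 6 skeletal muscle markers 0 were called, with sums of 3.39 to 33.9 CPM in females and 3.27 to 93.3 CPM in males, and of 6 motor neuron markers 0, with sums of 33.0 to 321 and 22.9 to 165 CPM. Of 7 ganglion markers tested 0 were called, with sums of 10.9 to 644 and 11.5 to 29.7 CPM. In 9 further lists 0 genes were called, with medians from -0.14 to 0.17. No gene of these lists was at 0 in all samples of either sex. The part of these cell types in the difference of the members was not tested.

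**Figure D2:**
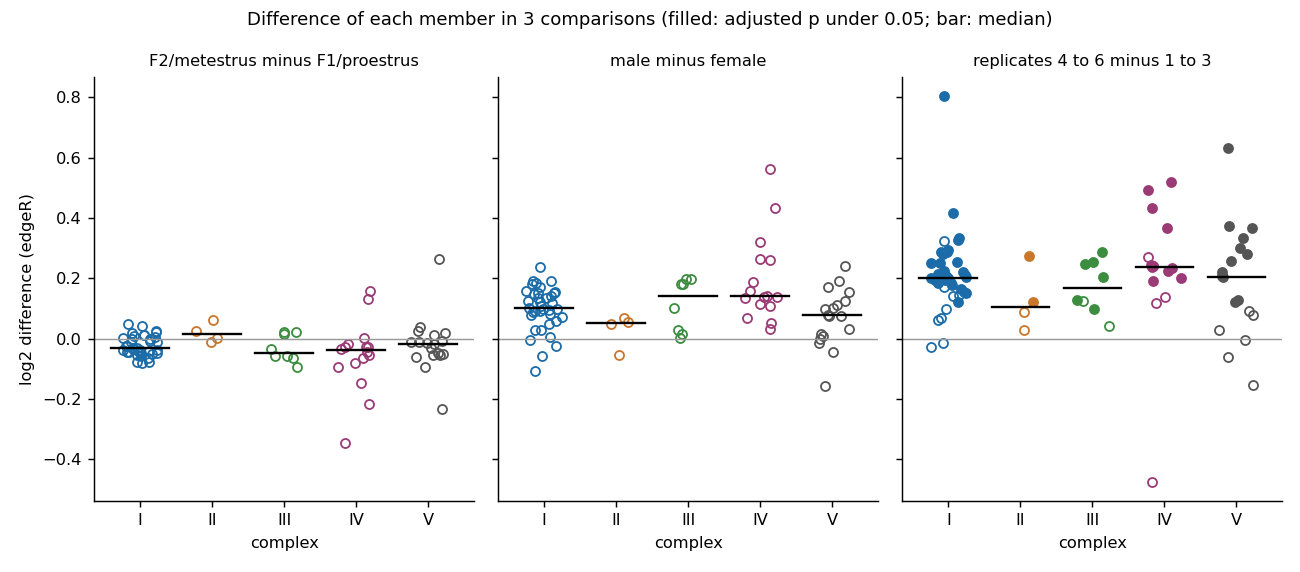
Log2 difference of each member (edgeR) for F2/metestrus minus F1/proestrus, male minus female, and replicates 4 to 6 minus 1 to 3, by complex. Filled points passed an FDR of 5% and bars are medians; only the comparison of the replicate sets has filled points, 58 of 83.

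The third comparison set replicates 4 to 6 against replicates 1 to 3, and most members were higher in replicates 4 to 6. With the group as a covariate, 58 of the 83 members were called higher in replicates 4 to 6 than in replicates 1 to 3, beside 14.2% of the 25180 genes tested, and 0 were called lower, beside 12.7% of all genes. The median log2 difference was 0.21 over the members (77 of 83 above 0) and 0.0039 over all genes tested with an annotation. Among the 58 called members the fold ran from 1.07 to 1.74, with a median of 1.17. Called were 28 of 37 members of complex I (median log2 difference 0.20), 2 of 4 of complex II (0.11), 6 of 8 of complex III (0.17), 10 of 16 of complex IV (0.24) and 12 of 18 of complex V (0.20). In 8 members, *Ndufa3*, *Ndufs5*, *Ndufv3*, *Sdhc*, *Cox5b*, *Cox6a1*, *Atp5g1* and *Atp5k*, all 9 samples of replicates 4 to 6 lay above all 9 of replicates 1 to 3, beside 1.43% of all genes tested. Without the F1/proestrus sample of replicate 2, 44 members were called higher, without that of replicate 5 63, without the male sample of replicate 2 53 and without that of replicate 5 46, with medians from 0.17 to 0.23.

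In complex I the smallest p was that of *Ndufs5*, an accessory subunit. Its CPM in F1/proestrus were 8.75, 6.85 and 9.27 in replicates 1 to 3 and 17.1, 12.3 and 14.9 in replicates 4 to 6. In F2/metestrus they were 7.67, 8.79 and 9.79 against 13.9, 14.7 and 12.0, and in males 8.65, 9.28 and 8.02 against 13.0, 17.8 and 18.8. Replicates 4 to 6 were higher in every group without overlap, and the log2 difference was 0.80 ± 0.09 (SE, adjusted p = 2.45e-06 in edgeR). *Ndufs5* is among the members with many shared windows, and its level is uncertain.

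*Atp5k*, subunit e of the membrane part of ATP synthase, shares 0.603% of its windows and differed in the same direction. It had 14.3 to 22.0 CPM in replicates 1 to 3 and 24.1 to 35.0 CPM in replicates 4 to 6, a log2 difference of 0.63 ± 0.08 (adjusted p = 1.34e-05 in edgeR). *Cox6a1* had 158 to 211 CPM in the first set and 212 to 268 CPM in the second, a log2 difference of 0.37 ± 0.05 (adjusted p = 1.12e-05 in edgeR). For both genes the sets did not overlap. In complex II, *Sdhc*, a membrane anchor, had 68.9 to 83.4 CPM in replicates 1 to 3 and 84.9 to 102 CPM in replicates 4 to 6 (0.27 ± 0.04, adjusted p = 3.53e-05 in edgeR). *Uqcrh*, the hinge protein of complex III, had 92.3 to 122 CPM and 98.4 to 157 CPM, so that its sets overlapped (0.29 ± 0.08, adjusted p = 0.00706 in edgeR).

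The members described next did not pass, or passed with smaller differences than those above. *Sdha* had 887 to 967 CPM in replicates 1 to 3 and 862 to 1030 CPM in replicates 4 to 6, with a log2 difference of 0.03 ± 0.03 (adjusted p = 0.504 in edgeR). *Ndufs1* had 282 to 321 and 258 to 317 CPM, with a difference of -0.015 ± 0.03 (adjusted p = 0.780 in edgeR). Their approximate 95% intervals were -0.03 to 0.09 and -0.08 to 0.05. With offsets for GC content and length in each sample, *Ndufs1* turned to 0.12 and was called higher (adjusted p = 0.0174 in edgeR). The 10 subunits listed as core had a median of 0.13, and 8 of them were called higher. Among the 8 were the accessory subunits *Cox4i1* (0.22) and *Cox5a* (0.19). *Atp5b* was also called, with 0.12 ± 0.03 and 2200 to 2518 against 2420 to 2700 CPM. *Cox6a2* was the member with the lowest difference, -0.47 ± 0.20 (adjusted p = 0.0929 in edgeR), and -0.38 without the male sample of replicate 2.

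**Figure D3:**
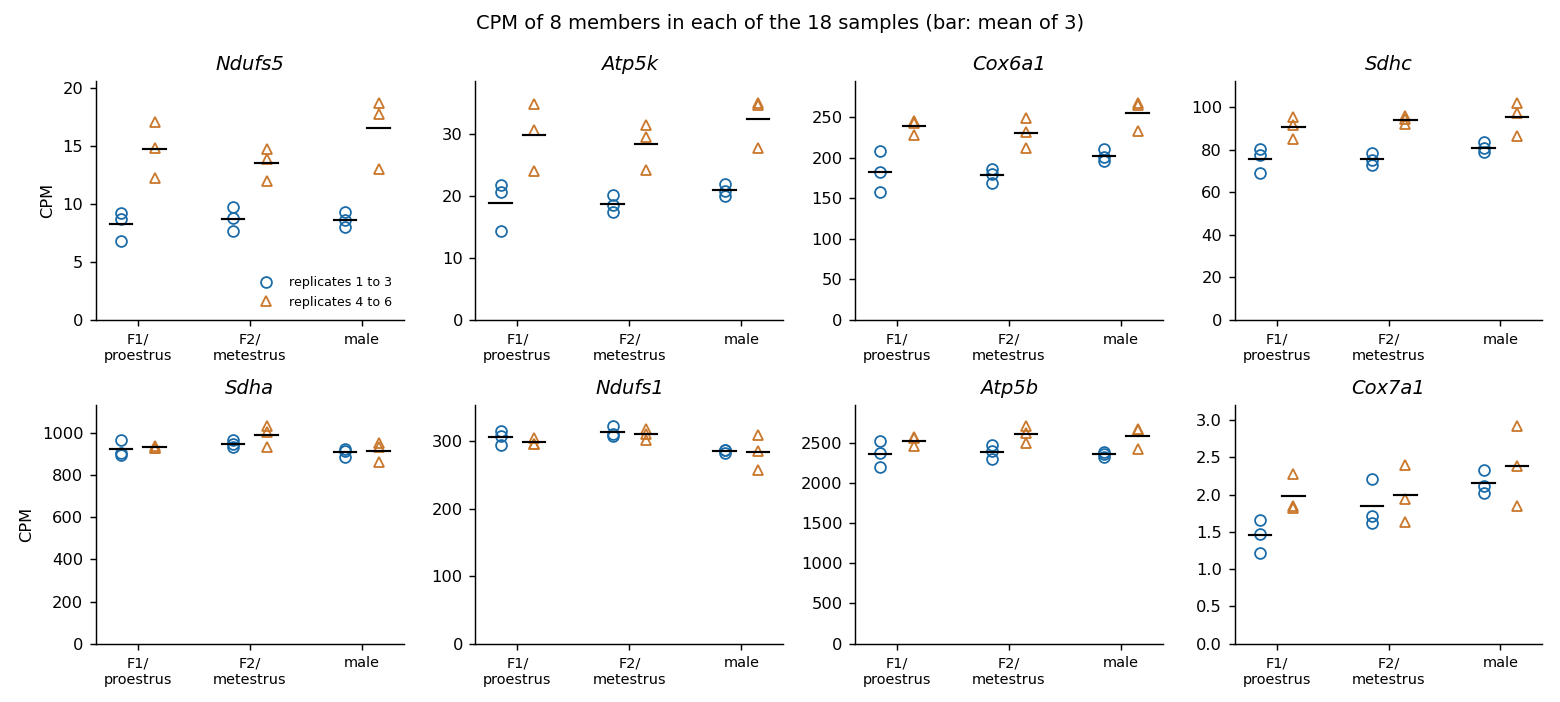
CPM of 8 members in each of the 18 samples by group, with circles for replicates 1 to 3, triangles for replicates 4 to 6 and bars for means of 3; all axes start at 0. *Ndufs5*, *Atp5k*, *Cox6a1* and *Sdhc* do not overlap between the sets, whereas *Sdha*, *Ndufs1*, *Atp5b* and *Cox7a1* do.

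The same comparison within each group has 3 samples against 3. The median log2 difference of the members was 0.18 in F1/proestrus (76 of 83 above 0), 0.14 in F2/metestrus (76 of 83) and 0.26 in males (80 of 83). At an FDR of 5%, 0 members were called in F1/proestrus, and 26 (31.3%) had an unadjusted p under 0.05 beside 18.9% of all genes. In F2/metestrus 6 members were called higher and in males 16. Of all genes, 0.0857% were called higher in F1/proestrus, 0.973% in F2/metestrus and 1.13% in males. Whether the difference between the sets varied with the group was tested as an interaction, which was called for 0 of the 83 members; among all 26075 genes tested 0% were called, and 916 had an unadjusted p under 0.05. In males the members of complex V had a median of 0.28 and those of complex I 0.27.

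A mean over the members of the log2 CPM of each sample, as a deviation from the mean of each gene over the 18 samples, shows where single samples lay. In replicates 1 to 3 all 9 samples were below 0, from -0.26 in the F1/proestrus sample of replicate 2 to -0.0039 in that of replicate 3. In replicates 4 to 6 the values ran from -0.09 to 0.27, and 2 samples were below 0, F2/metestrus replicate 6 (-0.09) and F1/proestrus replicate 5 (-0.08). The F1/proestrus sample of replicate 5 is that with the ganglion markers. The highest values were those of the males of replicates 6 (0.27) and 5 (0.23), which also had the highest sums of Schwann cell markers (2695 and 4542 CPM). A male sample of replicates 1 to 3 had a sum close to that of male replicate 6. The males of replicates 1 to 3 nevertheless lay below 0 (-0.04, -0.02 and -0.11). Whether these markers and the members go together was not tested. By complex, the range over the 18 samples was narrowest in complex II, from -0.18 to 0.14, and widest in complex IV, from -0.29 to 0.35. Each member has the same weight in these means, and complex IV includes members with few counts, such as *Cox8b* (11 to 59 per sample). The part of low counts in these ranges was not tested.

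**Figure D4:**
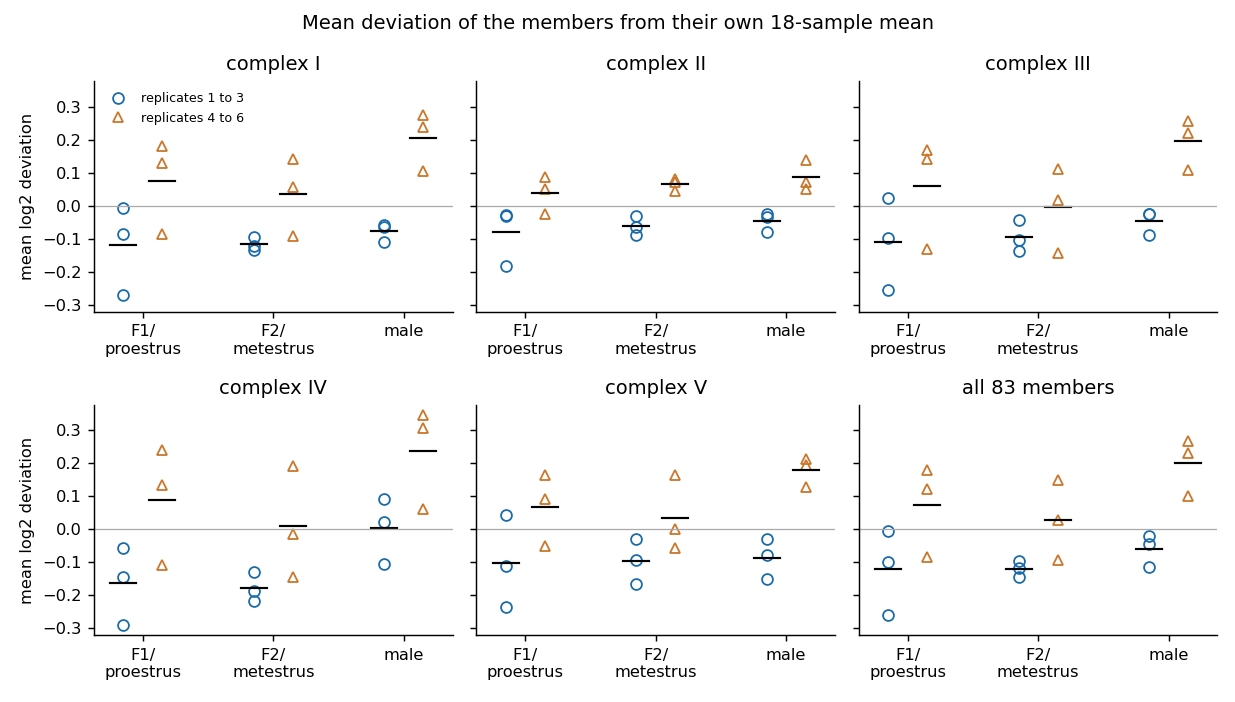
Mean log2 deviation of the members of each complex, and of all 83, from the mean of each gene over the 18 samples, by group; circles are replicates 1 to 3, triangles replicates 4 to 6 and bars means of 3. The samples of replicates 1 to 3 lie between -0.26 and -0.0039 over all members and those of replicates 4 to 6 between -0.09 and 0.27.

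Length and GC content moved with the difference between the sets. The median exon length of the members was 1550 bases, against 3005 bases for all genes tested. All genes tested were put into 4 equal classes by exon length. In the class with the longest exons (over 5331 bases) the median log2 difference was -0.10 and 5.21% were called higher, whereas in the classes from 27 to 1415 and from 1415 to 3005 bases it was 0.04 and 0.08 with 16.9% and 21.1% called higher. The 38 members of the shortest class had a median of 0.24 with 29 called, the 27 of the next 0.19 with 17 called, the 15 of the third 0.17 with 12 called, and the 3 of the longest -0.015 with 0 called. By GC content the median over all genes went from -0.08 in the lowest of 4 classes to 0.10 in the highest, and that of the members from 0.11 to 0.23. With offsets for GC content and length in each sample, 34 members were called higher and 1 (*Cox6a2*) lower, beside 10.9% and 11.4% of all genes, and the median was 0.11. The remaining part of length and GC content in the difference was not tested.

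**Figure D5:**
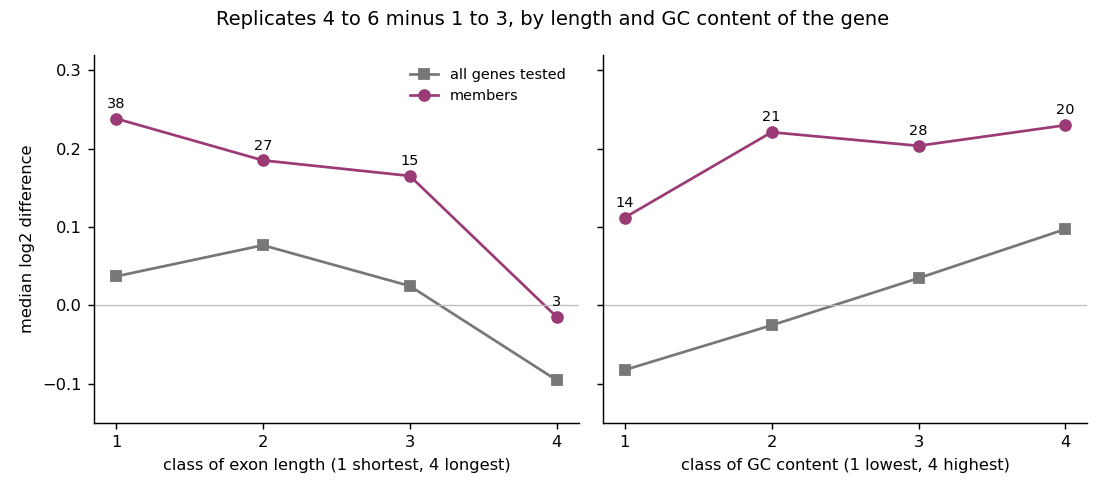
Median log2 difference, replicates 4 to 6 minus 1 to 3, in 4 equal classes of exon length and of GC content, for all genes tested (squares) and for the members in the same classes (circles, with their number). The members lie above all genes in every class, and both fall toward the longest genes.

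Members below the limit of shared windows were counted separately. Of the 71 members sharing under 10% of their windows with genes elsewhere, 50 were called higher between the sets, with a median of 0.20. Of the 41 without any window shared with genes elsewhere, 29 were called higher, with a median of 0.20. Some of the 41 share windows with genes that overlap them, such as *Ndufb6* with 31.6%. Without the 2 pseudogenes 57 of 81 were called. These counts were chosen after seeing the data.

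Other genes of the same pathway were counted from lists drawn up for this work. None of these lists held a called gene between the female groups or between the sexes. Between the replicate sets, 14.2% of all genes tested were called higher and 12.7% lower. Of 32 mitochondrial ribosomal proteins, which make the subunits encoded in mitochondrial DNA, 22 were called higher and 0 lower (median 0.17). *Mrps21* and *Mrps7* had the smallest p, with log2 differences of 0.49 ± 0.07 and 0.21 ± 0.04. Of 48 assembly factors of the complexes, 16 were called higher and 2 lower (median 0.09), led by the copper chaperone *Cox17* (0.38 ± 0.06) and by *Ndufaf8* (0.35 ± 0.06), which helps to build complex I. Of 11 genes for cytochrome c and for the export of ATP, 6 were called higher (median 0.14), led by the ADP/ATP carrier *Slc25a4* (0.19 ± 0.03) and by *Atpif1*, the inhibitor of ATP synthase (0.26 ± 0.05). Of 14 genes of the tricarboxylic acid cycle 6 were called higher (median 0.10), led by *Suclg1* (0.14 ± 0.03) and *Mdh2* (0.19 ± 0.05). Among 15 regulators of mitochondrial biogenesis 3 were called higher and 1 lower (median 0.02), counts near the shares of all genes. *Polg*, the mitochondrial DNA polymerase, was lower (-0.18 ± 0.04), and the transcription factor *Tfb2m* was higher (0.16 ± 0.05).

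Some marker lists of cell types and RNA had called genes between the sets, beside 14.2% of all genes called higher and 12.7% lower. Of 9 microglia markers, 6 were called higher and 1 lower, and their sums were 404 to 498 CPM in replicates 1 to 3 and 446 to 553 CPM in replicates 4 to 6. Of 5 nuclear-retained RNAs, 3 (*Snhg11*, *Neat1* and *Kcnq1ot1*) were called lower and 0 higher, with sums of 976 to 1492 CPM and 498 to 1227 CPM. Of 6 markers of oligodendrocyte precursors, 3 were called higher and 2 lower (sums 525 to 652 and 578 to 747 CPM), and of 6 of endothelial cells 1 higher and 2 lower (sums 191 to 223 and 192 to 234 CPM). Of 6 Schwann cell markers 1 was called higher (sums 1264 to 2679 and 1370 to 4542 CPM), of 7 ganglion markers tested 1 higher (sums 10.9 to 35.3 and 11.5 to 644 CPM), and of 6 skeletal muscle markers 1 lower (sums 3.59 to 93.3 and 3.27 to 20.1 CPM). In neurons 1 of 10 markers was called higher (sums 8915 to 11672 and 8707 to 12337 CPM), in oligodendrocytes 1 of 8 higher (sums 29279 to 34486 and 30094 to 37150 CPM) and in astrocytes 1 of 8 lower (sums 5926 to 6818 and 6133 to 7479 CPM), shares at or below those of all genes. Of the motor neuron, fibroblast, red blood cell and neutrophil lists 0 genes were called. No gene of these lists was at 0 in all samples of either set. The part of these in the difference of the members was not tested.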

How the data were processed

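The members, the gene lists and the comparison of replicate sets were chosen with earlier results of these data known, so that none of the choices is independent of them. The authors deposited raw counts per gene, made, per the methods, by aligning reads uniquely to mm10 (Subread) and then counting those on exons (featureCounts), without normalization. The submitters' processing notes give Subread 2.0.3 and the methods an older version. The library kit is TruSeq in the methods but SMART-Seq with Nextera XT in the labels. The authors also deposited the results of a comparison of their own (DESeq2 means, fold changes and p-values), of which only the gene symbols were used.

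Genes were tested with edgeR 4.0.16 in R 4.3.3 (filterByExpr with a minimum count of 10 and a minimum total of 15, TMM, quasi-likelihood test, Benjamini-Hochberg adjustment over all genes tested, FDR of 5%): F2/metestrus against F1/proestrus in 12 females, males against all 12 females, and replicates 4 to 6 against 1 to 3 with the group as covariate, with their interaction. Intervals are the estimate ± 1.96 SE. Exon lengths, GC content and 50-base windows came from GENCODE vM21, which held all 83 members, and promoters from RefSeq. Alternatives were DESeq2 1.42.0, limma voom (3.58.1) with quality weights, other size factors and count filters, offsets for GC content and length, replicate block or set terms, each set, group or female group alone, all 3 groups in 1 fit, and leaving out each sample. The interaction of sex and set and the subsets of members were chosen after seeing the data.

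Genes named in the text are, for each complex, the member with the highest level per kb and those with the smallest p in each comparison. Also named are the subunits listed as core, the tissue isoforms, the mitochondrial genes, and the 2 genes of smallest p of each pathway list with a called gene. Members with the widest gaps between sets, with shared windows or outside the count minimum, and the nuclear-retained RNAs and cell type markers, were named after their values were seen. Other genes are not reported here.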

Additional observations from a re-analysis of the deposited data

Results flagged for a closer look

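*Ndufa4* in the F2/metestrus sample of replicate 5 had 266 CPM, against 182 to 201 CPM in the other 5 samples of the group, a gap to its nearest neighbour beyond Dixon's 95% limit for 6 samples. It was the only flag among 102 groups of 6 tested (34 named members in 3 groups), of which chance flags about 1 in 20. The remaining members were not put to this test. The same sample had the highest mean deviation of its group over all members (0.15), so that the flag may not be particular to *Ndufa4*.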

How the results depend on the processing

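The number of members called between the replicate sets, 58, was 49 to 60 under DESeq2, limma voom, other size factors, other count filters or no group term. It was 50 without members sharing at least 10% of their windows and 57 without pseudogenes. It moved to 35 with offsets for GC content and length, and within 3 against 3 samples to 0 in F1/proestrus, 6 in F2/metestrus and 16 in males. Leaving out single samples gave 44 to 63. The counts between the female groups, between the sexes and for the interaction were 0 under all alternatives run, also on leaving out single samples (0 to 0). The median difference between the female groups was -0.071 to 0.017 on leaving out single samples and changed sign to 0.017, 0.0031 and 0.0026 without F1/proestrus replicate 4, F1/proestrus replicate 6 and F2/metestrus replicate 2. *Ndufs1* went from -0.015 to 0.12 (adjusted p = 0.0174 in edgeR) between the sets with the offsets, and the cause was not tested. The labels do not state that replicate numbers pair the samples. Out of 3 candidates in the same set of another group, a sample matched its own number best in 11 of 36 comparisons. Correlations of samples with the same number, with the set difference left in, ran from -0.082 to 0.55. A pairing is neither shown nor excluded by these values. With the replicate number as a replicate block, 0 members were called between the female groups and 0 between the sexes, where 23 members (27.7%) and 15.5% of all genes had an unadjusted p under 0.05 and 112 genes were called. At this number of samples, a 1.2-fold difference between the sexes was outside the interval for 36 of 83 members.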
